A study of Homo sapiens with 12 samples.

Results

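The transcripts described here come from 32 genes of cholesterol and fatty acid synthesis that the SREBP transcription factors are known to drive, measured in Ewing sarcoma cells that resist the compound YK-4-279 and in their parental lines. They were chosen by gene symbol from knowledge of the pathway, and with earlier results of these data known. All 32 are among the 56609 gene symbols of the deposited tables. They comprise 18 enzymes of the sterol branch, 8 of the fatty acid branch, 5 regulators and 1 sterol transporter. Ewing sarcoma is a cancer of bone and soft tissue in the young, and the fusion transcription factor EWS-FLI1 drives most cases. YK-4-279 is a small-molecule inhibitor of that fusion. A4573-R is a derivative of the Ewing sarcoma line A4573 that resists YK-4-279, and its libraries come from cells given the compound at a dose written as 650 uM in the labels. A4573 parental received the solvent DMSO. TC-71-R is the resistant derivative of the line TC-71, treated with YK-4-279, with 400 uM written as the dose, and TC-71 parental received DMSO. The written doses are high for a cultured-cell treatment, so their unit is in doubt. Each of the 4 groups has 3 RNA-seq libraries, and the culture medium (RPMI) held 10% fetal bovine serum, which itself supplies lipids. Each resistant line is a single derivative of its parent, and the labels do not say whether it is a clone or a pool. Resistance and the presence of the compound go together in every comparison, so they cannot be told apart. Nor do the labels state that separate cultures gave the 3 libraries of a group, and p-values then measure the spread between these libraries, which may be technical.

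SREBP-2, the product of SREBF2, mainly drives cholesterol synthesis and uptake, while SREBP-1, the product of SREBF1, mainly drives fatty acid synthesis. Both are made as membrane proteins of the endoplasmic reticulum. When membrane cholesterol is low, SCAP escorts them to the Golgi for cleavage, and when it is high, the INSIG proteins hold them back. The sterol branch turns acetyl-CoA into mevalonate, isoprenoid units, squalene and then cholesterol, and the fatty acid branch turns citrate into saturated, monounsaturated and elongated acyl chains.

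SREBPs bind sterol regulatory elements next to CCAAT boxes, which bind NF-Y, and GC boxes, which bind Sp1. The windows of 3 promoters are shown for the genes the results turn on: MVD, whose change differed most between the resistant lines, FDPS, which changed most in TC-71-R, and SREBF2 itself. Each run gives the 250 bases before the RefSeq start on the strand of the gene (GRCh38.p14), with the letters of CCAAT or its complement ATTGG, and of the sterol regulatory element, in capitals. MVD lies on the minus strand at chr16:88663092-88663341, FDPS on the plus strand at chr1:155308616-155308865 and SREBF2 on the plus strand at chr22:41832855-41833104.
MVD: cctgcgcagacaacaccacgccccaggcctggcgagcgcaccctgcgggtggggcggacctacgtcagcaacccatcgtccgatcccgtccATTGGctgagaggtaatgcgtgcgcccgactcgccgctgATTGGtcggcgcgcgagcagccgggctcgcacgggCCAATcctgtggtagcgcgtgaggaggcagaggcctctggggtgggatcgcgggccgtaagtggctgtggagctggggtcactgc
FDPS: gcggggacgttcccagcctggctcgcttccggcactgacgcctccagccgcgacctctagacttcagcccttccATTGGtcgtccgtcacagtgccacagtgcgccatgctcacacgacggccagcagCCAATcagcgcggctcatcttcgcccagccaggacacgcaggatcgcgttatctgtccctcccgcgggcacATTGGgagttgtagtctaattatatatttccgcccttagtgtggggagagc
SREBF2: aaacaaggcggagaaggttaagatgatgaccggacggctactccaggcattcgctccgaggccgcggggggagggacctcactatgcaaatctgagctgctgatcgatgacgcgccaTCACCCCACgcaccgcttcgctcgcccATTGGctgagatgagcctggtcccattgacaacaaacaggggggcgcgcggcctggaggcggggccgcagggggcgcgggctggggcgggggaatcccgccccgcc
MVD holds 3 CCAAT boxes, which begin 159, 120 and 85 bases before the start. FDPS also holds 3, at 176, 122 and 51 bases before the start. SREBF2 holds 1 match to the sterol regulatory element TCACNCCAC, 133 bases before the start, and a CCAAT box at 106 bases. RefSeq windows of 250 bases before to 50 after a start were at hand for 28 of the 32 genes, and 21 of these 28 (75%) contain CCAAT on either strand, against 39.7% of the 27305 genes of the same table. The share was 86.7% (13 of 15) in the sterol branch, 71.4% (5 of 7) in the fatty acid branch and 50% (3 of 6) among regulators and the transporter. The GC box GGGCGG was present in 92.9% of the members and 48.3% of all genes. The E-box CACGTG was present in 17.9% of the members and 8.77% of all genes. TCACNCCAC was found in SREBF2 alone among the members (3.57%) and in 1.39% of all genes. Matches to different motifs do not overlap in the 3 windows shown. A match is a run of letters and not a bound site, and no match says only that these letters are not in the window. The shares of all genes were not limited to genes expressed in these cells, whereas all members were expressed. What this does to the comparison was not tested. On the sense strand alone CCAAT was present in 39.3% of the members and 23.3% of all genes, and the GC box in 71.4% of the members and 33.9% of all genes.

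The values are CPM, read counts per 1000000 on the library sizes the authors scaled, and named genes held 44 to 62.1 M reads (1 M is 1000000) per library. The lowest read count of any member was 206, for STARD4 in TC-71-R replicate 1, and the highest was 67156, for FADS2. Changes are log2 fold changes of CPM + 1 from a limma model of all 12 libraries, with p-values adjusted by Benjamini-Hochberg over the 14335 genes tested. The model takes 1 estimate of each gene's spread from all 4 groups. Members varied more between libraries of the derivatives, with a median coefficient of variation of 6.01% in A4573-R and 4.63% in TC-71-R. It was 2.08% in A4573 parental and 2.2% in TC-71 parental. SEs can therefore be too small between the resistant lines and too large between the parental lines. A gene is called higher or lower, or said to rise or fall, at an adjusted p below 0.05. The libraries within a group are so alike that this threshold was passed by 72.5% of all tested genes in A4573-R against its parent and by 78.5% in TC-71-R. Counts of members are therefore read against those shares. The 10 Ewing sarcoma markers summed to 874 to 884 CPM in A4573-R and 707 to 736 CPM in A4573 parental. The sums were 1260 to 1290 CPM in TC-71-R and 1070 to 1080 CPM in TC-71 parental. Single markers went both ways. Of the 9 tested, 4 rose and 5 fell in A4573-R (median log2 fold change -0.24). In TC-71-R, 5 rose and 1 fell (median 0.098). Of all tested genes, 38.3% rose and 34.1% fell in A4573-R, and 38.8% rose and 39.6% fell in TC-71-R. CCK averaged 207 CPM in A4573-R and 68 CPM in A4573 parental, whereas FLI1 averaged 21.7 and 37.1 CPM. CD99, a defining surface marker whose symbol has more than 1 entry, was under 1 CPM in all 4 groups. Whether this value measures CD99 expression was not tested. CCK was under 1 CPM in TC-71-R and TC-71 parental. The 5 fibroblast markers summed to 505 to 513 CPM in A4573-R and 655 to 676 CPM in A4573 parental, against 108 to 110 CPM in TC-71-R and 95.9 to 96.3 CPM in TC-71 parental, with COL1A2 under 1 CPM in both TC-71 groups, and their part in the results was not tested. Adipocyte markers summed to at most 0.296 CPM and hepatocyte markers to at most 0.588 CPM in any library, and epithelial, haematopoietic and endothelial markers to at most 1.79 CPM. Mitochondrially encoded genes took 2.58% ± 0.184 of the named reads in A4573-R and 2.78% ± 0.171 in A4573 parental, against 6.48% ± 1.35 in TC-71-R and 6.95% ± 0.584 in TC-71 parental (SD, n = 3). Replicate 2 stood apart within A4573-R, being the lowest of its group in 26 of the 32 members. In these bulk samples, fewer cells of a kind and less RNA per cell cannot be told apart.

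Most sterol enzymes were higher in both resistant lines than in their parents, against 16.4% of all tested genes. In the fatty acid branch, 4 of the 8 enzymes had opposite calls in the 2 lines, against 26.2% of all tested genes. In A4573-R, 13 of 18 sterol enzymes rose (3 of them at least 2-fold: TM7SF2, MVD and FDFT1), 1 fell and 4 did not pass, with a median log2 fold change of 0.50, against 0.019 over all tested genes. In TC-71-R, 16 rose (2 of them at least 2-fold: FDPS and MVK), 1 fell and 1 did not pass, with a median of 0.59, against -0.0033 over all tested genes. The shares of all tested genes called higher were 38.3% in A4573-R and 38.8% in TC-71-R, and 3.49% and 4.52% were at least 2-fold higher in these lines. Of the 8 fatty acid enzymes, 5 rose and 2 fell in A4573-R (median 0.15), and 4 rose and 3 fell in TC-71-R (median 0.039). Over all 32 members, 23 rose and 3 fell in A4573-R, and 23 rose and 6 fell in TC-71-R. The shares of all tested genes called lower were 34.1% in A4573-R and 39.6% in TC-71-R. Libraries of a derivative and its parent did not overlap for 26 members in A4573-R and 28 in TC-71-R, against 74.6% and 81.1% of all tested genes. Without A4573-R replicate 2, 24 members rose and 3 fell in A4573-R, and the sterol median was 0.56.

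**Figure D1:**
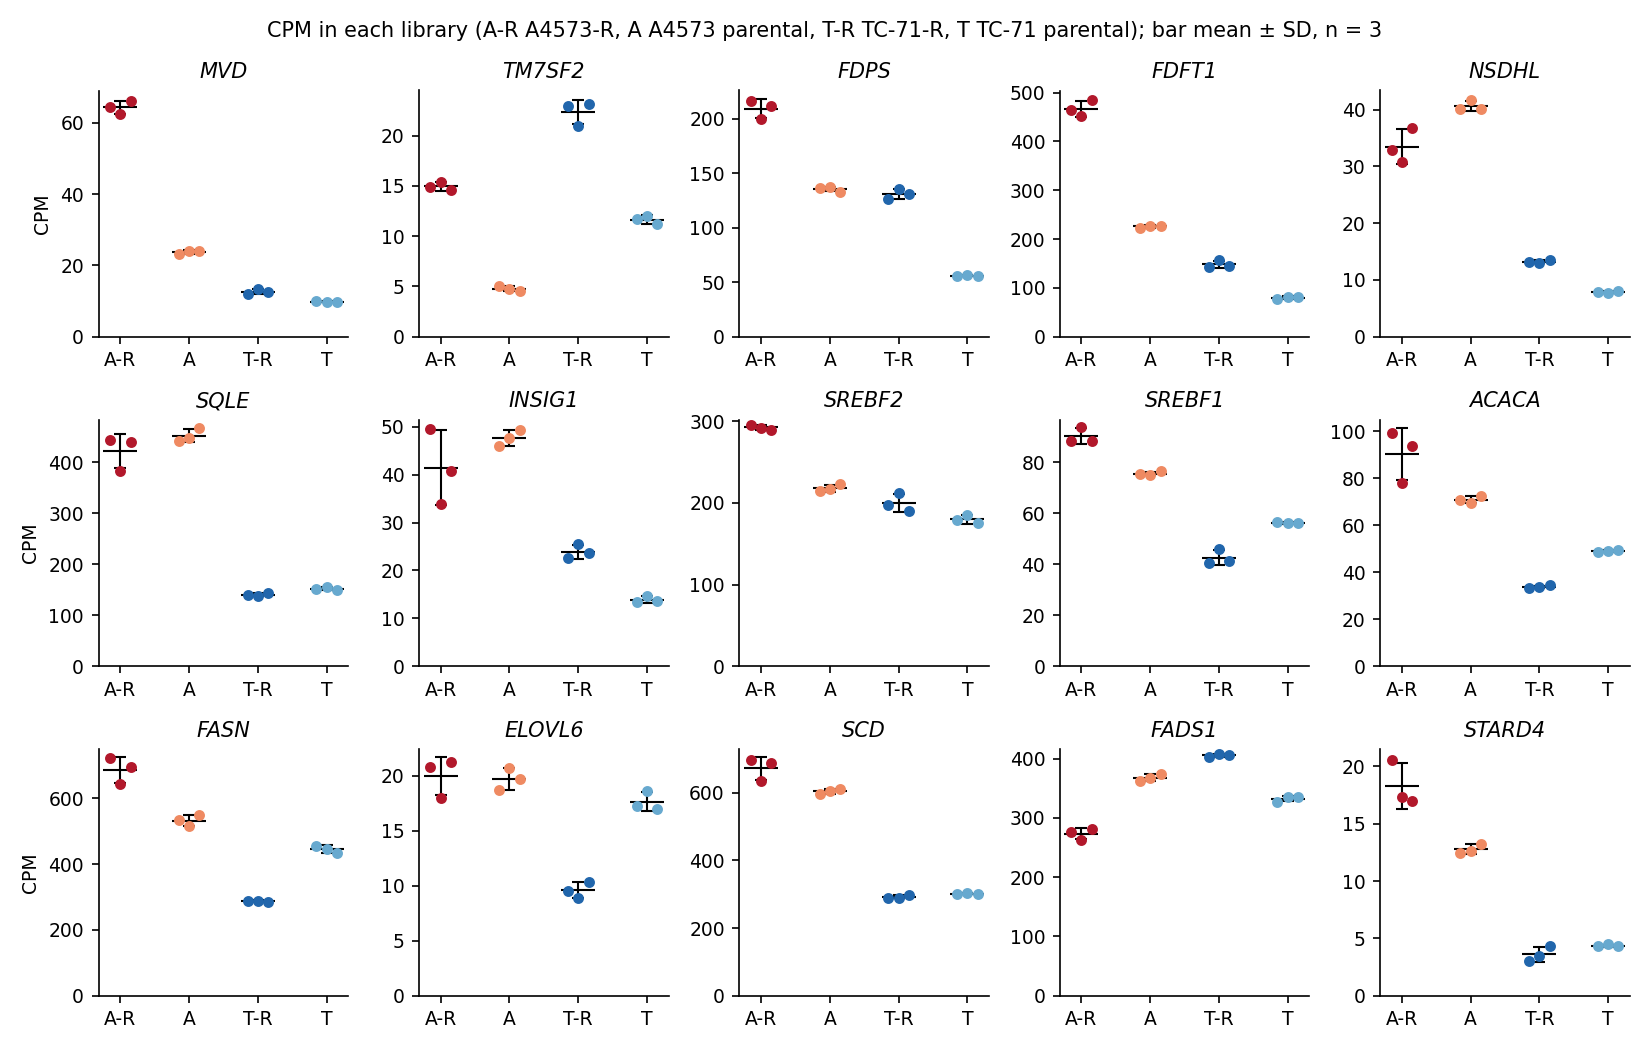
Level of 15 of the genes in each of the 12 libraries, in CPM, 1 panel per gene, with each resistant line left of its parent; points are libraries and lines are group means. MVD stands between 62.5 and 66.2 CPM in A4573-R and at no more than 24.2 CPM in the other groups, whereas FASN is highest in A4573-R and lowest in TC-71-R.

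The mevalonate enzymes, which build isoprenoid units from acetyl-CoA, were higher in nearly every case. In A4573-R 6 of 7 rose, against 38.3% of all tested genes, and in TC-71-R 7 of 7, against 38.8%. MVD, which decarboxylates mevalonate diphosphate, is annotated at chr16:88651935-88663161 on the minus strand (GENCODE 29 on GRCh38, as are the positions that follow). It had 64.3, 62.5 and 66.2 CPM in A4573-R, against 23.2, 24.2 and 23.9 CPM in A4573 parental, a log2 fold change of 1.40 (SE 0.043, adjusted p = 3.9e-13). In TC-71, MVD had 11.9, 13.3 and 12.5 CPM in TC-71-R, against 9.93, 9.61 and 9.71 CPM in TC-71 parental, a change of 0.34 (SE 0.043, adjusted p = 3.0e-06). Every A4573-R library thus lay more than 2-fold above every A4573 parental library, and the change was larger in A4573-R than in TC-71-R by 1.06 (SE 0.061, adjusted p = 3.2e-10) on the log2 scale.

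FDPS, which joins isoprenoid units into farnesyl diphosphate, showed the reverse order of sizes. It had 126, 136 and 131 CPM in TC-71-R, against 55.8, 56.4 and 55.7 CPM in TC-71 parental, a log2 fold change of 1.21 (SE 0.036, adjusted p = 1.6e-13), the highest of the 32 genes in that line. In A4573, FDPS had 216, 199 and 211 CPM in A4573-R, against 136, 137 and 133 CPM in A4573 parental, a change of 0.62 (SE 0.036, adjusted p = 5.9e-10). No libraries of a derivative and its parent overlapped, and the difference between the lines was -0.59 (SE 0.051, adjusted p = 4.9e-08). Reads of FDPS can be shared with 8 annotated pseudogenes, which together averaged 0.107 CPM.

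MVK, which phosphorylates mevalonate, had 6.501, 8.31 and 7.48 CPM in TC-71-R, against 3.45, 3.22 and 2.94 CPM in TC-71 parental, a log2 fold change of 1.00 (SE 0.071, adjusted p = 3.5e-09). In A4573, MVK had 20.6, 19.8 and 22.3 CPM in A4573-R, against 13.9, 14.3 and 14.3 CPM in A4573 parental, a change of 0.53 (SE 0.071, adjusted p = 7.3e-06). Both derivatives lay above their parents without overlap, and the change in A4573-R minus that in TC-71-R was -0.47 (SE 0.1, adjusted p = 0.00055). Adding 1 CPM brings the changes of a gene this low nearer to 0, most of all in TC-71, where MVK was lowest. The sizes of the MVK changes therefore cannot be ranked closely beside those of FDPS. PMVK, the next kinase of the pathway, had 38.3, 41.3 and 41.2 CPM in A4573-R, against 26.4, 26.3 and 27.4 CPM in A4573 parental, and 61.6, 59.02 and 60.01 CPM in TC-71-R, against 38.3, 38.5 and 40.3 CPM in TC-71 parental. Its changes of 0.57 (SE 0.038, adjusted p = 2.7e-09) in A4573-R and 0.61 (SE 0.038, adjusted p = 7.3e-10) in TC-71-R differed by -0.04 (SE 0.054, adjusted p = 0.52), which did not pass.

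ACAT2, the cytosolic thiolase that opens the pathway, had 145, 130.0 and 150.2 CPM in A4573-R, against 100.4, 103 and 105 CPM in A4573 parental, and 48.8, 52.9 and 49.7 CPM in TC-71-R, against 32.2, 35.7 and 33.2 CPM in TC-71 parental. All 3 libraries of each derivative were above all 3 of its parent, with changes of 0.46 (SE 0.052, adjusted p = 1.0e-06) in A4573-R and 0.57 (SE 0.052, adjusted p = 6.2e-08) in TC-71-R. The gene shares 1141 exon bases with SOD2 and 397 with TCP1 on the opposite strand, and reads of these genes cannot be told apart unless the counting used strand, a setting not given in the sources used here. HMGCS1, which makes HMG-CoA, had 215, 164 and 219 CPM in A4573-R, against 129, 135 and 139 CPM in A4573 parental, and 49.7, 54.0 and 53.2 CPM in TC-71-R, against 43.6, 45.6 and 44.7 CPM in TC-71 parental. Its change was 0.56 (SE 0.079, adjusted p = 1.3e-05) in A4573-R, where replicate 2 was the lowest of the 3, and 0.22 (SE 0.079, adjusted p = 0.017) in TC-71-R. The TC-71-R call did not pass with named genes scaled to 1000000 (0.15, adjusted p = 0.065), with no filter (adjusted p = 0.066), or without TC-71 parental replicate 1 (adjusted p = 0.055) or TC-71-R replicate 2 (adjusted p = 0.054).

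IDI1, the isomerase of isoprenoid units, was the member of this group that did not pass in A4573-R. It had 91.01, 72.1 and 83.4 CPM in A4573-R, against 70.6, 74.3 and 76.9 CPM in A4573 parental, which overlap, with a change of 0.15 (SE 0.069, adjusted p = 0.071). It was called higher without A4573-R replicate 2 (0.24, adjusted p = 0.0021), with quantile normalization (0.17, adjusted p = 0.021), with DESeq2 (0.15, adjusted p = 0.049) and with library weights (0.19, adjusted p = 0.014). In TC-71, IDI1 had 29.1, 30.1 and 32.9 CPM in TC-71-R, against 20.5, 21.6 and 19.6 CPM in TC-71 parental, without overlap, and rose by 0.55 (SE 0.069, adjusted p = 2.4e-06).

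From squalene on, 7 of 11 enzymes rose and 1 fell in A4573-R, and 9 rose and 1 fell in TC-71-R. Of all tested genes, 38.3% rose and 34.1% fell in A4573-R, and 38.8% rose and 39.6% fell in TC-71-R. FDFT1, squalene synthase and the first enzyme committed to sterols, had 465, 452 and 484 CPM in A4573-R, against 223, 227 and 228 CPM in A4573 parental, a log2 fold change of 1.04 (SE 0.04, adjusted p = 4.3e-12). In TC-71, FDFT1 had 143, 156 and 144 CPM in TC-71-R, against 77.1, 82.2 and 80.8 CPM in TC-71 parental, a change of 0.88 (SE 0.04, adjusted p = 1.6e-11). The libraries of derivative and parent lay far apart in both lines.

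SQLE, squalene epoxidase and a rate-controlling step of the branch, did not follow FDFT1, the enzyme before it. It had 445, 383 and 439 CPM in A4573-R, against 442, 448 and 466 CPM in A4573 parental, a log2 difference of -0.10 (SE 0.048, adjusted p = 0.072) that did not pass. In TC-71, SQLE had 139, 138 and 143 CPM in TC-71-R, against 150.5, 156 and 150.2 CPM in TC-71 parental, a change of -0.12 (SE 0.048, adjusted p = 0.031), the only sterol enzyme called lower there. The A4573 libraries overlap through replicate 1 of the derivative, and the TC-71 libraries are close but do not. In A4573-R it was called lower without replicate 1 (-0.14, adjusted p = 0.021) or replicate 3 (-0.13, adjusted p = 0.035), and with named genes scaled to 1000000, TMM, median-of-ratios scaling and quantile normalization (-0.15 to -0.10, adjusted p = 0.0077 to 0.045). In TC-71-R it did not pass without TC-71 parental replicate 1 or 2 or TC-71-R replicate 1 or 2, with changes of -0.13 to -0.10 (adjusted p = 0.05 to 0.11), nor with TMM (-0.087, adjusted p = 0.074), median-of-ratios scaling (-0.088, adjusted p = 0.078) or no filter (adjusted p = 0.082).

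LSS, which closes the squalene chain into lanosterol, had 69.6, 63.1 and 70.9 CPM in A4573-R, against 51.3, 50.4 and 53.2 CPM in A4573 parental, and 24.1, 23.9 and 22.7 CPM in TC-71-R, against 20.1, 20.3 and 20.2 CPM in TC-71 parental. It rose in both lines, by 0.39 (SE 0.043, adjusted p = 1.0e-06) in A4573-R and 0.21 (SE 0.043, adjusted p = 0.00034) in TC-71-R. CYP51A1, which removes a methyl group from lanosterol, had 7.03, 7.01 and 7.77 CPM in A4573-R, against 7.75, 7.74 and 7.49 CPM in A4573 parental, which overlap, with a difference of -0.068 (SE 0.06, adjusted p = 0.32). In TC-71, CYP51A1 had 5.89, 6.41 and 5.53 CPM in TC-71-R, against 5.06, 5.51 and 4.85 CPM in TC-71 parental, a change of 0.18 (SE 0.06, adjusted p = 0.013), which did not pass without TC-71 parental replicate 3 (adjusted p = 0.063) or TC-71-R replicate 2 (adjusted p = 0.064), or with named genes scaled to 1000000 (0.12, adjusted p = 0.084). CYP51A1 shares 2844 of its 3584 exon bases with the annotated gene AC000120.2 on the same strand, so its level in the tables is uncertain.

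TM7SF2, a sterol reductase that acts after CYP51A1 and lies at chr11:65111845-65116384 on the plus strand, had the largest rise of the 32 genes in A4573-R. It had 14.9, 15.4 and 14.6 CPM in A4573-R, against 5.09, 4.71 and 4.57 CPM in A4573 parental, a log2 fold change of 1.46 (SE 0.051, adjusted p = 1.6e-12). In TC-71, TM7SF2 had 22.9, 20.98 and 23.1 CPM in TC-71-R, against 11.7, 12.03 and 11.2 CPM in TC-71 parental, a change of 0.88 (SE 0.051, adjusted p = 2.7e-10). Every derivative library lay above its parent's, and the change was larger in A4573-R by 0.58 (SE 0.072, adjusted p = 2.5e-06).

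EBP, the sterol isomerase, rose in both lines. It had 93.7, 92.05 and 102 CPM in A4573-R, against 51.7, 51.6 and 50.7 CPM in A4573 parental, and 55.8, 55.05 and 56.95 CPM in TC-71-R, against 29.2, 29.2 and 30.9 CPM in TC-71 parental. The changes were 0.89 (SE 0.04, adjusted p = 2.6e-11) in A4573-R and 0.89 (SE 0.04, adjusted p = 1.3e-11) in TC-71-R, without overlap in either line, and their difference was 0.0003 (SE 0.056, adjusted p = 1). HSD17B7, a ketoreductase of the same stretch, had 16.1, 14.1 and 16.1 CPM in A4573-R, against 9.58, 10.5 and 9.73 CPM in A4573 parental, and 13.3, 14.6 and 13.7 CPM in TC-71-R, against 7.78, 7.97 and 7.63 CPM in TC-71 parental, with rises of 0.59 (SE 0.056, adjusted p = 1.7e-07) and 0.76 (SE 0.056, adjusted p = 5.6e-09) in A4573-R and TC-71-R. Its 2 annotated pseudogenes together averaged 0.432 CPM.

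MSMO1, a sterol methyl oxidase, had 65.8, 49.2 and 56.1 CPM in A4573-R, against 39.8, 40.5 and 42.2 CPM in A4573 parental, and 20.95, 22.96 and 24.6 CPM in TC-71-R, against 12.2, 13.8 and 12.2 CPM in TC-71 parental. It rose by 0.46 (SE 0.083, adjusted p = 0.00013) in A4573-R and by 0.80 (SE 0.083, adjusted p = 3.1e-07) in TC-71-R, and the derivatives did not overlap their parents. NSDHL, the decarboxylating dehydrogenase that works with MSMO1, moved in opposite directions. It had 32.95, 30.8 and 36.8 CPM in A4573-R, against 40.2, 41.7 and 40.1 CPM in A4573 parental, a change of -0.27 (SE 0.052, adjusted p = 0.00022), the only sterol enzyme called lower in A4573-R. In TC-71, NSDHL had 13.1, 12.97 and 13.5 CPM in TC-71-R, against 7.84, 7.74 and 8.04 CPM in TC-71 parental, a change of 0.68 (SE 0.052, adjusted p = 8.5e-09). The groups did not overlap in either line, and the 2 changes differed by -0.95 (SE 0.074, adjusted p = 1.1e-08).

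SC5D, a desaturase near the end of the branch, had 65.6, 53.9 and 61.05 CPM in A4573-R, against 47.9, 49.7 and 50.9 CPM in A4573 parental, a change of 0.27 (SE 0.07, adjusted p = 0.0027). In TC-71, SC5D had 8.77, 9.36 and 10.4 CPM in TC-71-R, against 9.10, 9.53 and 8.25 CPM in TC-71 parental, which overlap, with a difference of 0.077 (SE 0.07, adjusted p = 0.33). DHCR7, which makes cholesterol from 7-dehydrocholesterol, had 149, 135 and 156 CPM in A4573-R, against 155, 158 and 156 CPM in A4573 parental, which overlap, with a difference of -0.092 (SE 0.044, adjusted p = 0.075). In TC-71, DHCR7 had 29.01, 30.6 and 30.7 CPM in TC-71-R, against 26.1, 26.2 and 26.2 CPM in TC-71 parental, a change of 0.19 (SE 0.044, adjusted p = 0.00096). DHCR7 was called lower in A4573-R without A4573-R replicate 3 (-0.14, adjusted p = 0.0097), and with named genes scaled to 1000000, TMM and median-of-ratios scaling (-0.12 to -0.094, adjusted p = 0.02 to 0.048).

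The 5 regulators did not all move in 1 direction, and their median log2 fold changes were 0.25 in A4573-R and 0.11 in TC-71-R. SREBF2, which encodes SREBP-2, had 296, 292 and 289.9 CPM in A4573-R, against 215, 216 and 223 CPM in A4573 parental, a log2 fold change of 0.42 (SE 0.039, adjusted p = 1.1e-07). In TC-71, SREBF2 had 198, 212 and 190.1 CPM in TC-71-R, against 179, 185 and 175 CPM in TC-71 parental, a change of 0.15 (SE 0.039, adjusted p = 0.0023), with no overlap in either line. The TC-71-R call did not pass with named genes scaled to 1000000 (0.081, adjusted p = 0.065) or with quantile normalization (0.056, adjusted p = 0.22).

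SREBF1, which encodes SREBP-1 and lies at chr17:17810399-17837002 on the minus strand, went in opposite directions. It had 88.2, 93.9 and 88.4 CPM in A4573-R, against 75.2, 75.1 and 76.4 CPM in A4573 parental, a change of 0.25 (SE 0.043, adjusted p = 8.1e-05). In TC-71, SREBF1 had 40.6, 46.04 and 41.1 CPM in TC-71-R, against 56.7, 56.0 and 56.2 CPM in TC-71 parental, a change of -0.40 (SE 0.043, adjusted p = 4.7e-07). The groups did not overlap in either line, and the difference between the changes was 0.65 (SE 0.061, adjusted p = 1.0e-07). SREBF1 shares 556 exon bases with RAI1 on the opposite strand.

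INSIG1, itself a target of SREBPs that retains SCAP, had 49.6, 33.9 and 40.8 CPM in A4573-R, against 45.9, 47.7 and 49.3 CPM in A4573 parental, a difference of -0.21 (SE 0.093, adjusted p = 0.052). The A4573 libraries overlap, and replicate 2 of the derivative was the lowest. In TC-71, INSIG1 had 22.5, 25.5 and 23.6 CPM in TC-71-R, against 13.5, 14.7 and 13.6 CPM in TC-71 parental, without overlap, a change of 0.73 (SE 0.093, adjusted p = 3.0e-06). The difference between the lines was -0.95 (SE 0.13, adjusted p = 8.8e-06). INSIG1 was called lower in A4573-R without A4573-R replicate 1 (-0.35, adjusted p = 0.00049), and with named genes scaled to 1000000, TMM, median-of-ratios scaling and DESeq2 (-0.24 to -0.20, adjusted p = 0.028 to 0.047).

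INSIG2, the second retention protein, had 16.1, 14.6 and 14.4 CPM in A4573-R, against 10.7, 10.5 and 11.6 CPM in A4573 parental, a rise of 0.42 (SE 0.062, adjusted p = 1.9e-05). In TC-71, INSIG2 had 11.7, 9.90 and 11.4 CPM in TC-71-R, against 10.4, 9.99 and 10.1 CPM in TC-71 parental, which overlap, with a difference of 0.11 (SE 0.062, adjusted p = 0.13). It was called higher there as well without TC-71-R replicate 2 (0.17, adjusted p = 0.011), and with TMM, median-of-ratios scaling and library weights (0.14 to 0.19, adjusted p = 2e-04 to 0.043). SCAP had 54.9, 54.2 and 54.5 CPM in A4573-R, against 50.7, 51.7 and 50.6 CPM in A4573 parental, and 91.7, 93.4 and 90.7 CPM in TC-71-R, against 86.5, 87.4 and 85.6 CPM in TC-71 parental. Its rises of 0.10 (SE 0.028, adjusted p = 0.0071) in A4573-R and 0.087 (SE 0.028, adjusted p = 0.012) in TC-71-R were small, though no libraries overlapped, and the TC-71-R call did not pass with named genes scaled to 1000000 (0.016, adjusted p = 0.64).

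STARD4, a carrier of cholesterol between membranes, had 20.6, 17.3 and 16.99 CPM in A4573-R, against 12.5, 12.6 and 13.3 CPM in A4573 parental, a rise of 0.48 (SE 0.086, adjusted p = 0.00012) without overlap. In TC-71, STARD4 had 3.05, 3.47 and 4.33 CPM in TC-71-R, against 4.29, 4.47 and 4.36 CPM in TC-71 parental, which overlap, with a change of -0.23 (SE 0.086, adjusted p = 0.024). The TC-71-R call did not pass without TC-71-R replicate 1 (-0.14, adjusted p = 0.15) or replicate 2 (-0.21, adjusted p = 0.063), or without TC-71 parental replicate 2 (-0.21, adjusted p = 0.064) or replicate 3 (-0.23, adjusted p = 0.051), nor with quantile normalization (-0.18, adjusted p = 0.071), no filter (adjusted p = 0.073) or only the 2 groups compared in the fit (adjusted p = 0.057). The difference between the lines was 0.71 (SE 0.12, adjusted p = 7.0e-05).

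Of the 8 fatty acid enzymes, 2 rose in both lines (ACLY and ELOVL5), 4 had opposite calls (FASN, ACACA, FADS1 and FADS2), and SCD and ELOVL6 passed in 1 line each. Over all tested genes, 16.4% rose in both lines and 26.2% had opposite calls. FASN, the synthase that builds palmitate, lies at chr17:82078333-82098332 on the minus strand. It had 722, 644 and 694 CPM in A4573-R, against 534, 515 and 548 CPM in A4573 parental, a log2 fold change of 0.37 (SE 0.043, adjusted p = 1.5e-06). In TC-71, FASN had 289, 288 and 284 CPM in TC-71-R, against 457, 446 and 433 CPM in TC-71 parental, a change of -0.63 (SE 0.043, adjusted p = 1.8e-09). All A4573-R libraries were above and all TC-71-R libraries below those of their parents, and the changes differed by 1.00 (SE 0.06, adjusted p = 6.4e-10).

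ACACA, acetyl-CoA carboxylase and the committed step before FASN, showed the same split. It had 99.3, 78.1 and 93.6 CPM in A4573-R, against 70.6, 69.5 and 72.3 CPM in A4573 parental, a change of 0.34 (SE 0.061, adjusted p = 0.00014). In TC-71, ACACA had 33.5, 33.5 and 34.4 CPM in TC-71-R, against 48.7, 49.2 and 49.6 CPM in TC-71 parental, a change of -0.53 (SE 0.061, adjusted p = 1.1e-06). The groups did not overlap in either line, and the difference was 0.87 (SE 0.087, adjusted p = 2.2e-07).

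ELOVL6, which elongates palmitate, had 20.8, 17.99 and 21.2 CPM in A4573-R, against 18.7, 20.7 and 19.7 CPM in A4573 parental, which overlap, with a difference of 0.016 (SE 0.066, adjusted p = 0.84). In TC-71, ELOVL6 had 9.57, 8.89 and 10.4 CPM in TC-71-R, against 17.3, 18.7 and 17.02 CPM in TC-71 parental, a change of -0.81 (SE 0.066, adjusted p = 1.6e-08), the largest fall of the 32 genes in that line. Its changes differed by 0.83 (SE 0.093, adjusted p = 8.5e-07). SCD, the stearoyl-CoA desaturase, had 697, 634 and 688 CPM in A4573-R, against 597, 605 and 612 CPM in A4573 parental, a rise of 0.15 (SE 0.038, adjusted p = 0.0019). In TC-71, SCD had 290.1, 290.1 and 299 CPM in TC-71-R, against 300.1, 303 and 300.4 CPM in TC-71 parental, a difference of -0.039 (SE 0.038, adjusted p = 0.35) that did not pass. SCD was called lower there with named genes scaled to 1000000 (-0.11, adjusted p = 0.0074), quantile normalization (-0.12, adjusted p = 0.016) and library weights (-0.052, adjusted p = 0.033).

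ACLY, which splits citrate into acetyl-CoA for both branches, had 489, 458 and 496 CPM in A4573-R, against 432, 433 and 439 CPM in A4573 parental, and 141, 132 and 145 CPM in TC-71-R, against 127, 124 and 125 CPM in TC-71 parental. It rose slightly in both lines, by 0.14 (SE 0.039, adjusted p = 0.0037) in A4573-R and 0.15 (SE 0.039, adjusted p = 0.0021) in TC-71-R, and the TC-71-R call did not pass with named genes scaled to 1000000 (0.082, adjusted p = 0.055). ELOVL5, an elongase of polyunsaturated chains, had 173, 165 and 166 CPM in A4573-R, against 134, 135 and 133 CPM in A4573 parental, a rise of 0.32 (SE 0.041, adjusted p = 3.7e-06). In TC-71, ELOVL5 had 34.7, 32.9 and 35.8 CPM in TC-71-R, against 33.2, 31.9 and 29.9 CPM in TC-71 parental, which overlap, with a change of 0.12 (SE 0.041, adjusted p = 0.017). That call did not pass with named genes scaled to 1000000 (0.048, adjusted p = 0.34), with only the 2 groups compared in the fit (adjusted p = 0.052), or without TC-71 parental replicate 3 (0.077, adjusted p = 0.11) or TC-71-R replicate 3 (0.09, adjusted p = 0.076).

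FADS1, the delta-5 desaturase of polyunsaturated acids, moved against FASN in each line. It had 277, 263 and 282 CPM in A4573-R, against 362, 367 and 375 CPM in A4573 parental, a change of -0.43 (SE 0.033, adjusted p = 1.6e-08). In TC-71, FADS1 had 403, 408 and 407 CPM in TC-71-R, against 327, 336 and 335 CPM in TC-71 parental, a change of 0.29 (SE 0.033, adjusted p = 1.2e-06). FADS2, the delta-6 desaturase, had 693, 656 and 724 CPM in A4573-R, against 775, 781 and 778 CPM in A4573 parental, a change of -0.17 (SE 0.042, adjusted p = 0.0018). In TC-71, FADS2 had 404, 379 and 415 CPM in TC-71-R, against 355, 362 and 362 CPM in TC-71 parental, a change of 0.15 (SE 0.042, adjusted p = 0.0047). Neither gene's groups overlapped in either line, and the changes differed by -0.71 (SE 0.047, adjusted p = 1.9e-09) for FADS1 and -0.32 (SE 0.059, adjusted p = 0.00015) for FADS2. The genes overlap, FADS1 at chr11:61799625-61829318 on the minus strand and FADS2 at chr11:61792980-61867354 on the plus strand, and share 490 exon bases. The TC-71-R call of FADS2 did not pass with named genes scaled to 1000000 (0.076, adjusted p = 0.092) or quantile normalization (0.020, adjusted p = 0.60).

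**Figure D2:**
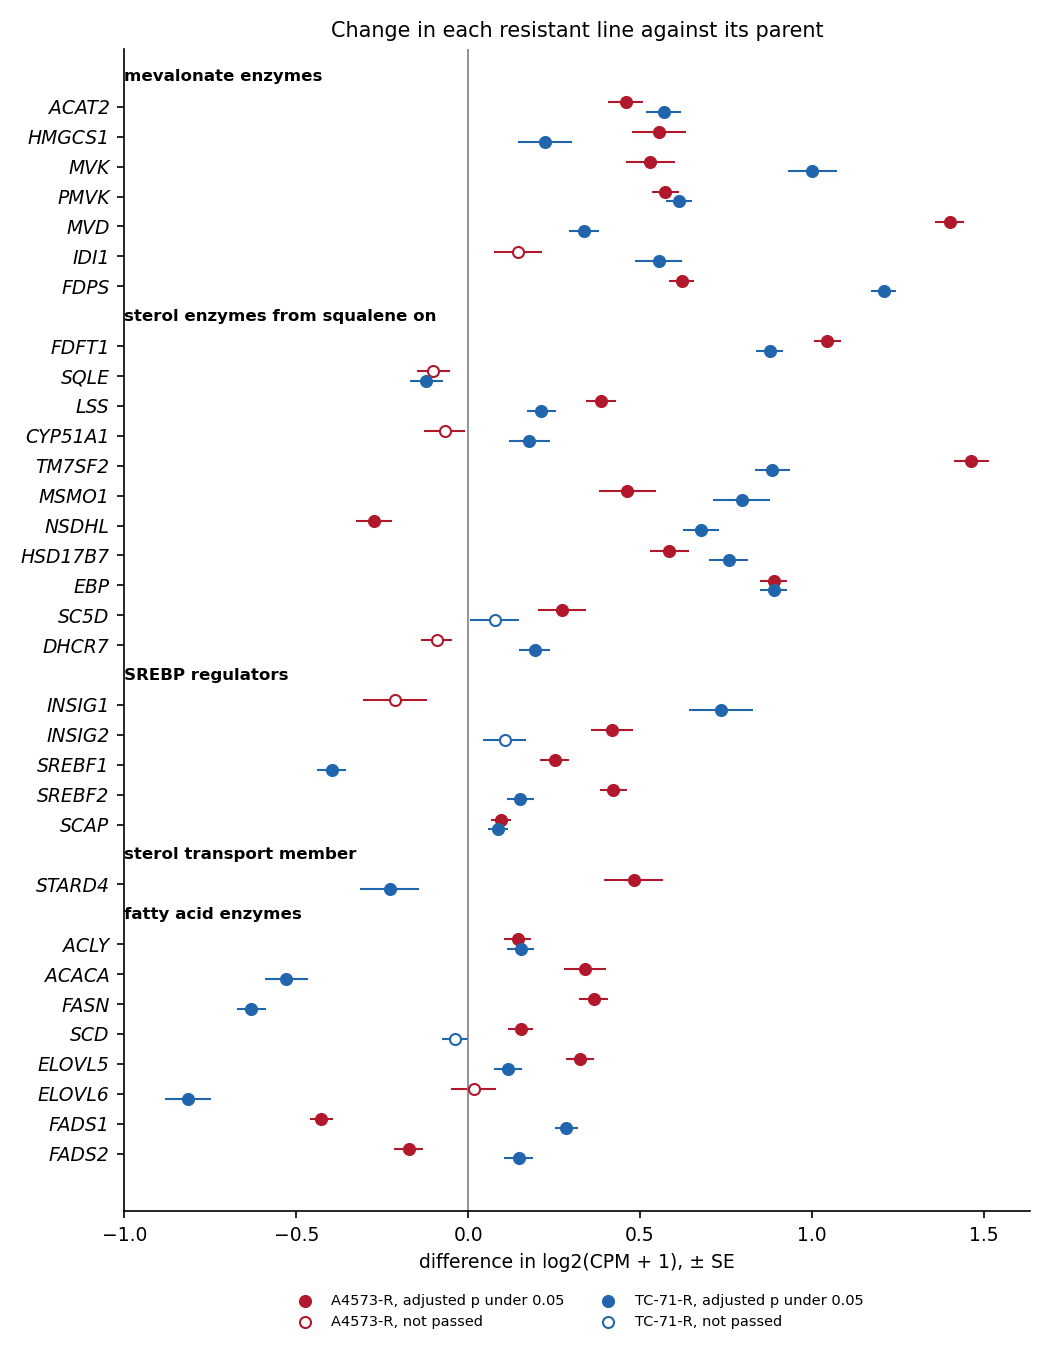
Log2 fold change of each of the 32 genes in A4573-R against A4573 parental and in TC-71-R against TC-71 parental, with bars of 1 SE, grouped by role; open points did not pass. Sterol enzymes lie mostly to the right of 0 in both lines, while FASN, ACACA and SREBF1 lie to the right in A4573-R and to the left in TC-71-R.

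Taking both lines together, 16 of the 32 members rose in each, against 16.4% of all tested genes. These 16 include 12 of the 18 sterol enzymes: ACAT2, HMGCS1, MVK, PMVK, MVD, FDPS, FDFT1, LSS, TM7SF2, MSMO1, HSD17B7 and EBP. The other 4 are SREBF2, SCAP, ACLY and ELOVL5. No member fell in both lines, against 14.8% of all tested genes. Opposite calls were made for 7 members, against 26.2% of all tested genes: SREBF1, STARD4, ACACA and FASN rose in A4573-R and fell in TC-71-R, and NSDHL, FADS1 and FADS2 fell in A4573-R and rose in TC-71-R. The number called higher in both lines was 11 to 18 over the alternative settings, and the number with opposite calls 6 to 9. The difference between the 2 changes passed in 24 of the 32 members, with 14 positive (a more positive change in A4573-R) and 10 negative, against 78.1% of all tested genes (40.2% positive and 37.9% negative).

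To set the branches beside each other in a single library, the log2(CPM + 1) values of each enzyme were centred on its mean over the 12 libraries and averaged over each branch. The sterol index was 0.85 ± 0.085 in A4573-R and 0.36 ± 0.016 in A4573 parental, and -0.33 ± 0.038 in TC-71-R and -0.88 ± 0.027 in TC-71 parental (SD, n = 3). The fatty acid index was 0.55 ± 0.081 in A4573-R and 0.46 ± 0.016 in A4573 parental, and -0.58 ± 0.040 in TC-71-R and -0.42 ± 0.016 in TC-71 parental. The derivatives thus lay above their parents in the sterol index in all libraries, while the fatty acid index overlapped in A4573 and lay lower in TC-71-R.

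Within a library, the sterol index minus the fatty acid index was 0.29, 0.29 and 0.32 in A4573-R, against -0.10, -0.093 and -0.10 in A4573 parental. It was 0.21, 0.32 and 0.24 in TC-71-R, against -0.47, -0.44 and -0.46 in TC-71 parental. The difference was higher in each of the 6 resistant libraries than in any of the 6 parental libraries. Where its sign changes is set by the centring, so the sign itself carries no meaning. A4573-R replicate 2, low in both indices, was in the middle of its group in this difference. Summed levels of the sterol enzymes were 2146 ± 140.1 CPM in A4573-R and 1601 ± 27.9 CPM in A4573 parental, and 829.6 ± 17.98 CPM in TC-71-R and 569 ± 10.6 CPM in TC-71 parental. For the fatty acid enzymes the sums were 3084 ± 146 CPM in A4573-R and 2943 ± 30.3 CPM in A4573 parental, and 1602 ± 29.1 CPM in TC-71-R and 1662 ± 9.65 CPM in TC-71 parental. These indices are descriptions over chosen genes and carry no test.

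**Figure D3:**
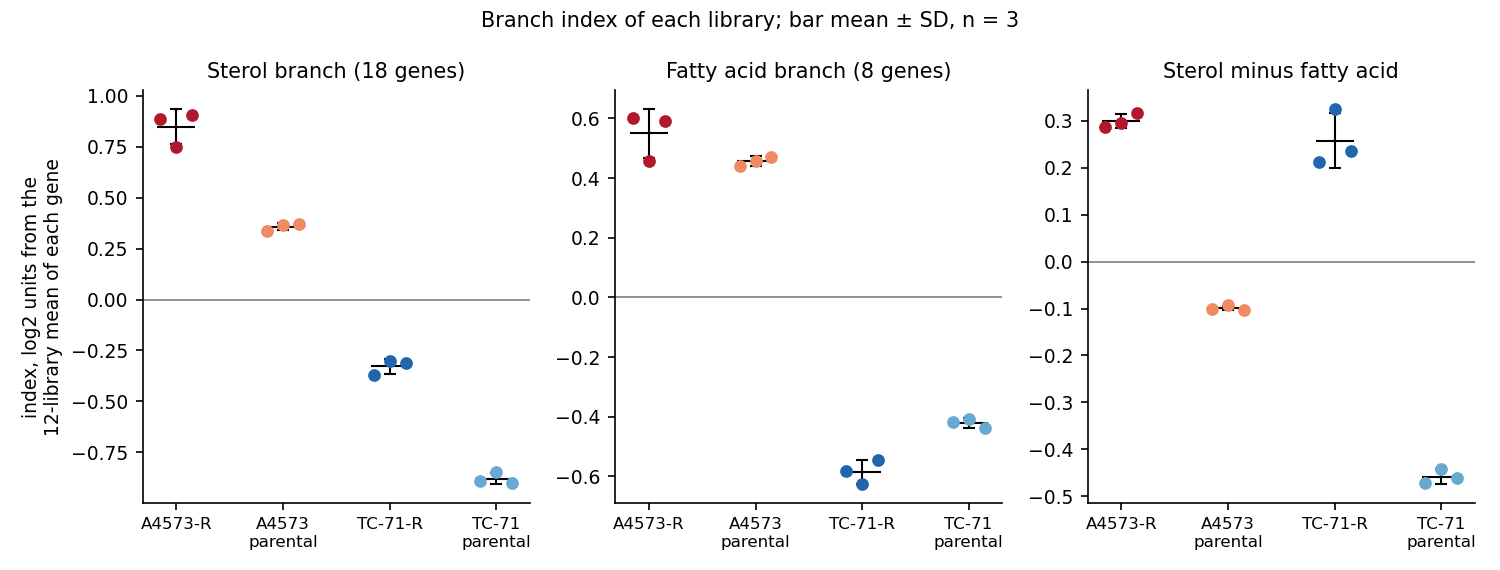
Sterol index, fatty acid index and their difference in each library, on the log2 scale and centred on the mean of the 12 libraries, with each resistant line left of its parent. The difference lies between 0.21 and 0.32 in the 6 resistant libraries and between -0.47 and -0.093 in the 6 parental libraries.

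By their median, these genes differed more between the 2 parental lines than between either derivative and its parent. All tested genes, too, were called more often between the parental lines (89.9%) than in A4573-R (72.5%) or TC-71-R (78.5%) against its parent. In TC-71 parental against A4573 parental, 28 of the 32 members were lower, 3 were higher and 1 did not pass, with a median log2 difference of -1.23, against 0.020 over all tested genes. The share of all tested genes called was 89.9% (44.1% lower and 45.9% higher), and 19 members were at least 2-fold lower, against 14.6% of all tested genes. The 28 hold 16 of the 18 sterol enzymes and all 8 fatty acid enzymes. DHCR7 averaged 26.2 ± 0.0474 CPM in TC-71 parental, against 156 ± 1.31 CPM in A4573 parental (SD, n = 3 each), a log2 difference of -2.53 (SE 0.044, adjusted p = 3.9e-17). SC5D averaged 8.96 ± 0.6503 CPM in TC-71 parental, against 49.5 ± 1.502 CPM in A4573 parental, a difference of -2.34 (SE 0.07, adjusted p = 2.8e-14). NSDHL averaged 7.87 ± 0.153 CPM in TC-71 parental, against 40.6 ± 0.909 CPM in A4573 parental, a difference of -2.23 (SE 0.052, adjusted p = 1.2e-15). ELOVL5 had the largest such difference of the fatty acid branch, at -2.05 (SE 0.041, adjusted p = 1.9e-16).

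PMVK, TM7SF2 and SCAP were the exceptions, being higher in TC-71 parental. TM7SF2 averaged 11.6 ± 0.411 CPM in TC-71 parental, against 4.79 ± 0.2698 CPM in A4573 parental, a difference of 1.13 (SE 0.051, adjusted p = 4.5e-12). PMVK averaged 39.02 ± 1.097 CPM in TC-71 parental, against 26.7 ± 0.614 CPM in A4573 parental, a difference of 0.53 (SE 0.038, adjusted p = 1.9e-09). SCAP averaged 86.5 ± 0.927 CPM in TC-71 parental, against 50.99 ± 0.647 CPM in A4573 parental, a difference of 0.75 (SE 0.028, adjusted p = 5.0e-13). INSIG2 averaged 10.1 ± 0.201 CPM in TC-71 parental, against 10.97 ± 0.577 CPM in A4573 parental, a difference of -0.10 (SE 0.062, adjusted p = 0.13) that did not pass. It was called lower with TMM, median-of-ratios scaling, quantile normalization and only the 2 groups compared in the fit (-0.23 to -0.10, adjusted p = 0.0019 to 0.047). FASN and FADS1 were lower in TC-71 parental by less, with differences of -0.26 (SE 0.043, adjusted p = 3.3e-05) and -0.15 (SE 0.033, adjusted p = 0.00076), and ELOVL6, at -0.15 (SE 0.066, adjusted p = 0.04), did not pass without A4573 parental replicate 2 or 3 or TC-71 parental replicate 1 or 3 (adjusted p = 0.078 to 0.15), nor with named genes scaled to 1000000 (-0.085, adjusted p = 0.23) or no filter (adjusted p = 0.09). With quantile normalization FADS1 and SREBF2 were not called and had the opposite sign (0.059 and 0.054). No libraries of the parental lines overlapped for any of the 32 members, against 92.5% of all tested genes.

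In TC-71-R against A4573-R, 28 members were lower and 4 were higher (PMVK, TM7SF2, SCAP and FADS1), with a median log2 difference of -1.27, against -0.016 over all tested genes, of which 89.2% were called (45.5% lower and 43.7% higher). Of the members, 19 were at least 2-fold lower, against 15.7% of all tested genes. FASN averaged 287 ± 2.56 CPM in TC-71-R, against 687 ± 39.6 CPM in A4573-R, a difference of -1.25 (SE 0.043, adjusted p = 1.3e-13). MVD averaged 12.6 ± 0.716 CPM in TC-71-R, against 64.4 ± 1.85 CPM in A4573-R, a difference of -2.27 (SE 0.043, adjusted p = 9.5e-17). FDPS averaged 131 ± 4.801 CPM in TC-71-R, against 209 ± 8.68 CPM in A4573-R, a difference of -0.67 (SE 0.036, adjusted p = 4.8e-11). FADS1 averaged 406 ± 2.63 CPM in TC-71-R, against 274 ± 9.82 CPM in A4573-R, a difference of 0.57 (SE 0.033, adjusted p = 1.4e-10). The HSD17B7 call, 1 of the 28, did not pass with TMM (-0.12, adjusted p = 0.06), with only the 2 groups compared in the fit (adjusted p = 0.065), or without A4573-R replicate 1 or 3 or TC-71-R replicate 1 or 3 (-0.13 to -0.11, adjusted p = 0.064 to 0.11). The libraries did not overlap for 31 members, against 87.5% of all tested genes.

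**Figure D4:**
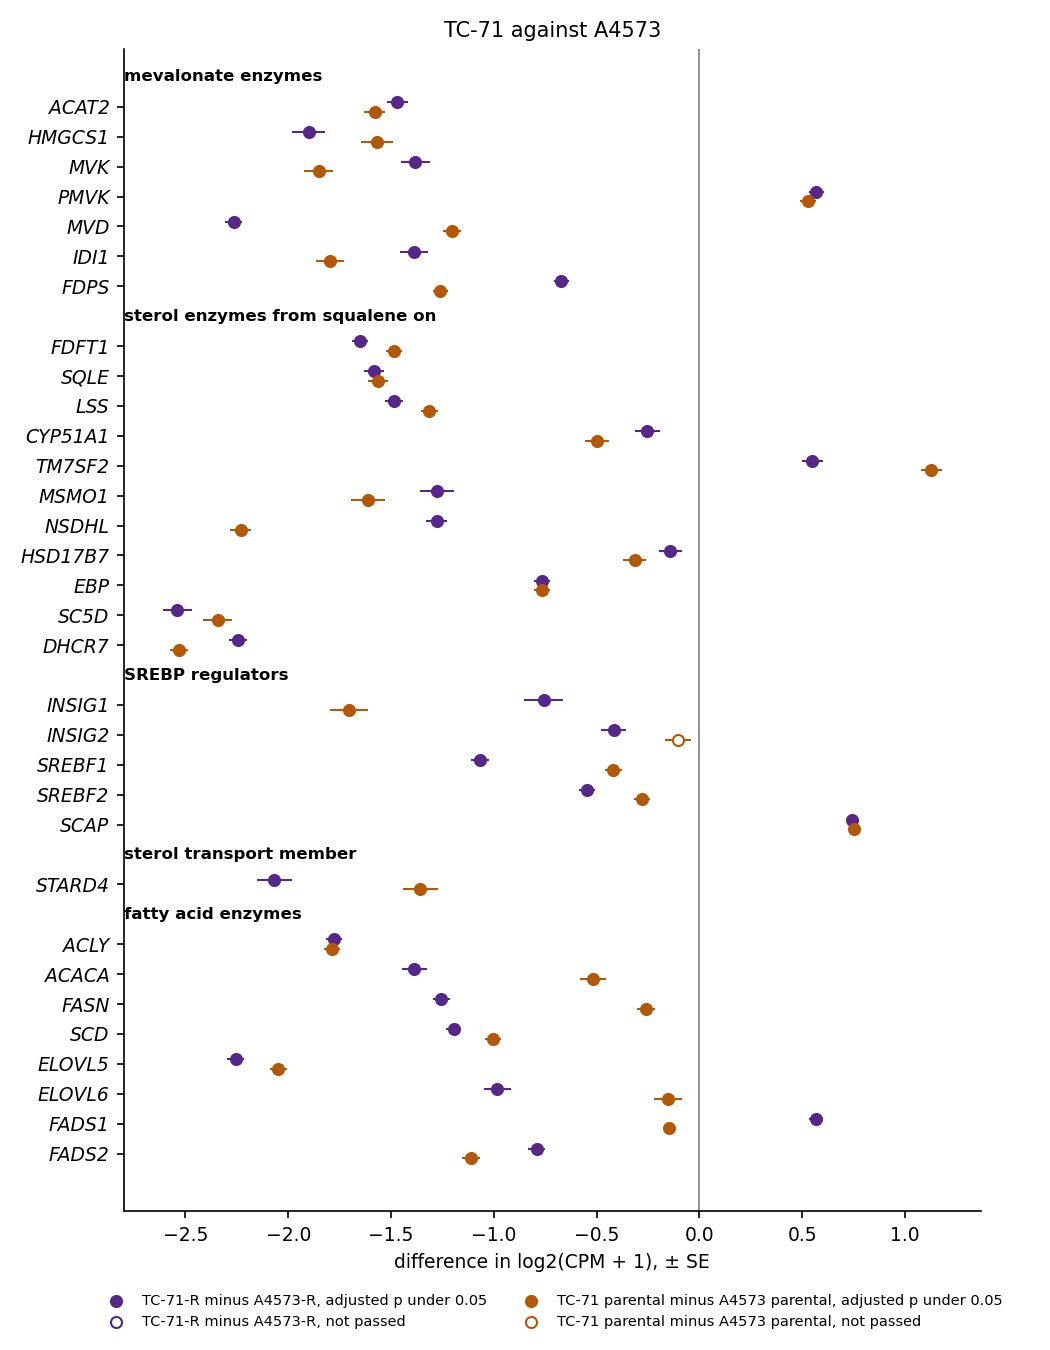
Log2 difference of each of the 32 genes in TC-71 parental against A4573 parental and in TC-71-R against A4573-R, with bars of 1 SE, grouped by role; open points did not pass. All but PMVK, TM7SF2, SCAP and, in the resistant lines, FADS1 lie to the left of 0.

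Per length of the annotated exons, SCD was the most abundant member in all 4 groups, at 193 reads per kb and per 1000000 in A4573-R, 174 in A4573 parental, 84.4 in TC-71-R and 91.1 in TC-71 parental. In A4573 it was followed by SQLE, with 151 in A4573-R and 162 in A4573 parental, and by ACLY, with 142 in A4573-R and 129 in A4573 parental. In TC-71-R the next were PMVK at 72.6 and FADS1 at 61.2, and in TC-71 parental FASN at 77.1 and SQLE at 57.4. The lowest members per length were CYP51A1 (3.12) in A4573-R, TM7SF2 (2.17) in A4573 parental, STARD4 (0.984) in TC-71-R and MVK (0.802) in TC-71 parental. The place of CYP51A1 is uncertain, because it shares most of its exon bases with AC000120.2 on the same strand.

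The other lists of sterol and lipid genes, also chosen with earlier results known, gave mixed counts. All counts of these lists, here and below, stand beside the same shares of all tested genes. These were 38.3% higher and 34.1% lower in A4573-R, and 38.8% higher and 39.6% lower in TC-71-R. Of 10 genes for SREBP processing and sterol-regulated degradation, 3 rose and 2 fell in A4573-R (median log2 fold change 0.065), and 2 rose and 6 fell in TC-71-R (median -0.14). MBTPS1, the first protease that cuts SREBPs, rose in A4573-R by 0.54 (SE 0.035, adjusted p = 1.6e-09), with 68.05 ± 0.649 CPM in A4573-R and 46.5 ± 0.953 CPM in A4573 parental, and in TC-71-R by 0.24 (SE 0.035, adjusted p = 1.1e-05). C12orf49, also known as SPRING1, a partner of that protease, had 17.8, 16.4 and 17.9 CPM in TC-71-R, against 40.8, 38.02 and 39.7 CPM in TC-71 parental, without overlap, a change of -1.14 (SE 0.05, adjusted p = 1.0e-11), and rose in A4573-R by 0.18 (SE 0.05, adjusted p = 0.0053). RNF139, a sterol-linked ubiquitin ligase, also fell in TC-71-R, a change of -0.76 (SE 0.055, adjusted p = 4.2e-09), with 78.96 ± 7.65 CPM in TC-71-R and 134 ± 1.02 CPM in TC-71 parental, and its difference of 0.12 (SE 0.055, adjusted p = 0.067) in A4573-R did not pass.

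Of 13 genes for cholesterol uptake, lysosomal export and esterification, 7 rose and 6 fell in A4573-R (median 0.47), and 5 rose and 6 fell in TC-71-R (median -0.12). NPC1, which exports cholesterol from lysosomes, fell in TC-71-R, a change of -0.57 (SE 0.039, adjusted p = 2.2e-09), with 30.6 ± 0.907 CPM in TC-71-R and 45.8 ± 1.24 CPM in TC-71 parental, and rose in A4573-R by 0.67 (SE 0.039, adjusted p = 5.8e-10), with 28.05 ± 1.05 CPM in A4573-R and 17.3 ± 0.357 CPM in A4573 parental. GRAMD1A, a carrier of cholesterol from the plasma membrane, rose in A4573-R by 0.72 (SE 0.038, adjusted p = 1.7e-10), with 44.7 ± 0.6905 CPM in A4573-R and 26.7 ± 0.322 CPM in A4573 parental, and fell in TC-71-R, a change of -0.51 (SE 0.038, adjusted p = 6.0e-09), with 19.01 ± 0.678 CPM in TC-71-R and 27.4 ± 1.004 CPM in TC-71 parental. SCARB1, a lipoprotein receptor, fell in A4573-R, a change of -0.65 (SE 0.031, adjusted p = 5.9e-11), with 55.2 ± 1.40 CPM in A4573-R and 87.2 ± 1.03 CPM in A4573 parental, and fell in TC-71-R, a change of -0.21 (SE 0.031, adjusted p = 1.7e-05). Of 8 tested genes of LXR signalling and cholesterol efflux, 4 rose and 4 fell in A4573-R (median 0.087), and 3 rose and 2 fell in TC-71-R (median 0.13). ABCA1, the cholesterol exporter, was low in all groups, fell in TC-71-R, a change of -1.71 (SE 0.056, adjusted p = 4.3e-13), with 0.142 ± 0.0247 CPM in TC-71-R and 2.74 ± 0.251 CPM in TC-71 parental, and rose in A4573-R by 0.49 (SE 0.056, adjusted p = 1.4e-06), with 1.12 ± 0.0764 CPM in A4573-R and 0.514 ± 0.0633 CPM in A4573 parental. At levels this low, adding 1 CPM makes both changes much smaller than the ratios of the CPM values.

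Among 18 further genes of fatty acid synthesis and elongation, 7 rose and 8 fell in A4573-R (median -0.065), and 6 rose and 8 fell in TC-71-R (median -0.082). ACSS2, which makes acetyl-CoA from acetate, rose in A4573-R by 0.92 (SE 0.047, adjusted p = 1.3e-10), with 27.5 ± 1.27 CPM in A4573-R and 14.1 ± 0.594 CPM in A4573 parental, and fell in TC-71-R, a change of -0.55 (SE 0.047, adjusted p = 3.2e-08), with 13.1 ± 0.562 CPM in TC-71-R and 19.5 ± 0.499 CPM in TC-71 parental. ME1, a source of NADPH for lipid synthesis, fell in TC-71-R, a change of -0.87 (SE 0.041, adjusted p = 2.7e-11), with 12.2 ± 0.303 CPM in TC-71-R and 23.1 ± 1.28 CPM in TC-71 parental, and its difference of -0.054 (SE 0.041, adjusted p = 0.25) in A4573-R did not pass. ELOVL1, an elongase of very long chains, fell in A4573-R, a change of -0.50 (SE 0.035, adjusted p = 4.3e-09), with 38.7 ± 1.64 CPM in A4573-R and 55.2 ± 0.932 CPM in A4573 parental, and rose in TC-71-R by 0.50 (SE 0.035, adjusted p = 2.6e-09), with 43.2 ± 0.686 CPM in TC-71-R and 30.1 ± 0.226 CPM in TC-71 parental.

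Of 12 tested genes of fatty acid oxidation, 8 rose and 2 fell in TC-71-R (median 0.39), and 5 rose and 3 fell in A4573-R (median 0.080). Over all tested genes, 38.8% rose in TC-71-R and 38.3% in A4573-R. CPT1A, which admits fatty acids to mitochondria, had 117, 107 and 114 CPM in TC-71-R, against 56.2, 56.1 and 57.8 CPM in TC-71 parental, and 77.3, 71.02 and 79.6 CPM in A4573-R, against 41.8, 41.8 and 43.6 CPM in A4573 parental. It rose in both lines without overlap, by 0.98 (SE 0.043, adjusted p = 1.2e-11) in TC-71-R and 0.83 (SE 0.043, adjusted p = 1.7e-10) in A4573-R. HADHA, 1 subunit of a mitochondrial oxidation complex, also rose in both, by 0.68 (SE 0.032, adjusted p = 3.1e-11) in TC-71-R and 0.30 (SE 0.032, adjusted p = 7.7e-07) in A4573-R. HADHB, the other subunit, stayed near its parental level, with 120 ± 0.694 CPM in TC-71-R and 121 ± 1.89 CPM in TC-71 parental. In A4573 it averaged 46.5 ± 0.995 CPM in A4573-R and 47.9 ± 1.16 CPM in A4573 parental. Of 12 tested genes of fatty acid activation and glycerolipids, 7 rose and 3 fell in A4573-R (median 0.13), and 7 rose and 5 fell in TC-71-R (median 0.17). Of 12 genes of isoprenoid side branches, which use the products of FDPS, 5 rose and 4 fell in A4573-R (median -0.0075), and 2 rose and 5 fell in TC-71-R (median -0.036).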

How the data were processed

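RNA was sequenced as paired ends of 100 bases in 12 libraries. The submitters' processing notes name Trimmomatic, STAR 2.4, HTSeq, edgeR and the build GRCh38. The deposited signal is 1 CPM value per gene and library. The authors' columns sum to more or less than 1000000, because the CPM were computed on library sizes times a scaling factor of 0.894 to 1.06. Dividing each column by its own step gave whole reads within 0.001 for 100% of the values, and 5 unnamed entries, 30.6% to 42% of a column, were left out of depth and tests.

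Entries of the same symbol were summed. The 14335 genes that reached 1 CPM in 3 or more libraries were tested, as log2(CPM + 1), which brings the fold changes of low genes nearer to 0. One limma 3.58.1 model (R 4.3.3) of 4 group means with a variance trend gave 5 contrasts, adjusted by Benjamini-Hochberg. All 32 members passed the filter. Exact tests on 3 against 3 libraries cannot go below 0.1 and were not used. The plan assumed plain CPM. Alternatives were a pseudocount of 0.25, other filters, 4 other scalings, edgeR 4.0.16 and DESeq2 1.42.0 on the whole reads, library weights, fits of only the 2 groups compared, a replicate block and leaving out each library. In A4573-R, the main test called 10389 genes, edgeR 10447 and DESeq2 10306, and in TC-71-R 11248, 11319 and 11180.

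The members and lists were chosen with earlier results of these data known. Each library's value is given for all 32 members. Of the other lists, up to 3 genes with the smallest adjusted p in a contrast are named, and of these the text gives some. Gene positions and exon lengths come from GENCODE 29. The main fit was also run on simulated counts, with known changes in A4573-R alone and the same spread setting in all groups. The spread of these libraries differs between groups, so that run does not show how reliable the calls here are. Some genes of the pathway are not reported here.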

Additional observations from a re-analysis of the deposited data

Results flagged for a closer look

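The change in A4573-R minus the change in TC-71-R passed the test of the difference itself (limma, adjusted p below 0.05) in 24 of the 32 members, against 78.1% of all tested genes. Each value below is that difference on the log2 scale. Among sterol enzymes with a more positive change in A4573-R, it was 1.06 for MVD, 0.58 for TM7SF2, 0.33 for HMGCS1, 0.17 for FDFT1 and 0.17 for LSS. Among those with a more positive change in TC-71-R, it was -0.95 for NSDHL, -0.59 for FDPS, -0.47 for MVK, -0.41 for IDI1, -0.33 for MSMO1, -0.29 for DHCR7 and -0.25 for CYP51A1. The difference did not pass for FDFT1 with TMM (0.11, adjusted p = 0.093) or median-of-ratios scaling (0.13, adjusted p = 0.052), for LSS with TMM (0.11, adjusted p = 0.077), or for HMGCS1 with no filter (adjusted p = 0.053). It did not pass for MSMO1 with library weights (-0.16, adjusted p = 0.14) or no filter (adjusted p = 0.06), or for CYP51A1 with named genes scaled to 1000000 (-0.20, adjusted p = 0.055). Among members whose difference did not pass, it was called for HSD17B7 under 7 alternatives (-0.28 to -0.20, adjusted p = 0.0048 to 0.046), for SC5D under 5 (0.25 to 0.32, adjusted p = 0.0023 to 0.04) and for ACAT2 with TMM (-0.17, adjusted p = 0.035).

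In the fatty acid branch the difference was 1.00 for FASN, 0.87 for ACACA, 0.83 for ELOVL6, 0.21 for ELOVL5 and 0.19 for SCD, and it had the opposite sign for FADS1 (-0.71) and FADS2 (-0.32). Among the regulators it was 0.65 for SREBF1, 0.31 for INSIG2, 0.27 for SREBF2 and -0.95 for INSIG1, and it was 0.71 for the transporter STARD4.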

How the results depend on the processing

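Of 3808 values of single members under alternative settings, 3684 kept their direction and their side of the threshold. With the same sign, 50 lost a call and 43 gained one, and 31 changed sign without passing. Among these 31, SREBF2 and FADS1 between the parental lines with quantile normalization also lost their calls. The median log2 fold change of the sterol branch in A4573-R was 0.47 to 0.56 when 1 library was left out. With named genes scaled to 1000000, TMM and median-of-ratios scaling, the TC-71-R medians were 0.52, 0.63 and 0.63 for the sterol branch and -0.032, 0.074 and 0.073 for the fatty acid branch, which was -0.051 with quantile normalization. The median difference between the changes was -0.0070 (sterol) and 0.27 (fatty acid) with named genes scaled to 1000000, and -0.13 and 0.14 with TMM. Between the parental lines, the same 3 scalings and quantile normalization gave sterol medians of -1.46, -1.56, -1.56 and -1.32 and fatty acid medians of -0.69, -0.79, -0.79 and -0.65. Between the resistant lines, the sterol median was -1.45 with edgeR, -1.45 with DESeq2 and -1.48 with library weights, and the fatty acid median -1.15 with quantile normalization. On the sense strand alone, CCAAT was in 39.3% of member promoters and 23.3% of all promoters, and the GC box in 71.4% of member promoters and 33.9% of all promoters.

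Signs changed in A4573-R for ELOVL6 (-0.0069 with TMM, and -0.026 to 0.087 leaving out 1 library) and in TC-71-R for SC5D (-0.013 with library weights). In the difference between the changes they changed for PMVK (0.031 with named genes scaled to 1000000), SQLE (-0.038 with TMM, -0.019 with median-of-ratios and -0.018 to 0.089 leaving out 1 library) and SCAP (-0.049 with TMM, -0.030 with median-of-ratios and -0.00030 to 0.020 leaving out 1 library). They also changed there for ACLY (0.060 with named genes scaled to 1000000, 0.013 with quantile normalization, and -0.046 to 0.026 leaving out 1 library). EBP gave -0.0066 with a pseudocount of 0.25, -0.061 with TMM, -0.042 with median-of-ratios, -0.040 with quantile normalization, -0.0071 with edgeR, -0.0071 with DESeq2, -0.0056 with library weights and -0.045 to 0.029 leaving out 1 library. Between the parental lines, quantile normalization gave 0.054 for SREBF2 and 0.059 for FADS1. The cause was not tested.

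Same-numbered libraries did not deviate together (correlations of -0.097 to 0.165), and 1 of 6 libraries of each resistance comparison correlated best with its own number. With the replicate block, 26 members were called in A4573-R, 29 in TC-71-R, 24 in the difference, 31 between the parental and 32 between the resistant lines. Depth limits the least abundant members most (the lowest count was 206 reads), and 3 libraries a group limit how well the spread is known.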

Other observations

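The spread between libraries of a group was wider in the derivatives. The median coefficient of variation over the 32 members was 6.01% in A4573-R and 2.08% in A4573 parental, and 4.63% in TC-71-R and 2.2% in TC-71 parental. It was highest for INSIG1 in A4573-R (19%) and for STARD4 in TC-71-R (18%), and was at most 5.63% in A4573 parental (TM7SF2) and 7.95% in TC-71 parental (MVK).

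Genes for the last step of triglyceride synthesis, DGAT1 and DGAT2, rose in both derivatives. DGAT1, which completes triglyceride synthesis, had 19.04, 18.6 and 18.4 CPM in A4573-R, against 11.2, 11.6 and 11.7 CPM in A4573 parental, and 28.99, 30.5 and 28.1 CPM in TC-71-R, against 19.8, 18.97 and 20.2 CPM in TC-71 parental, without overlap. Its log2 fold changes were 0.65 (SE 0.041, adjusted p = 1.5e-09) in A4573-R and 0.55 (SE 0.041, adjusted p = 7.3e-09) in TC-71-R. DGAT2, an unrelated enzyme of the same step, averaged 10.5 ± 0.283 CPM in A4573-R and 6.63 ± 0.182 CPM in A4573 parental, a change of 0.60 (SE 0.046, adjusted p = 1.4e-08), and 15.3 ± 0.816 CPM in TC-71-R and 9.75 ± 0.0776 CPM in TC-71 parental, a change of 0.60 (SE 0.046, adjusted p = 8.9e-09). PNPLA2, the lipase that begins triglyceride breakdown, went in opposite directions, with changes of -0.13 (SE 0.028, adjusted p = 0.0006) in A4573-R and 0.63 (SE 0.028, adjusted p = 1.5e-11) in TC-71-R.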
